A study of Mus musculus with 6 samples.

Results

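The 10 genes described here encode complement components and molecules of the major histocompatibility complex (MHC), and they were followed in hippocampi of mice with and without the Tg(ORAI1)Ibd transgene. They were chosen by symbol from the 54838 genes of the deposited count table. Each of the 10 was found and had enough counts to be tested, as had 19087 genes in all. Complement is a cascade of serum proteins that marks surfaces for removal. C1q recognises a target and starts the classical pathway, C4 is the next component to be cleaved, and C3 is the component on which all routes of activation meet. MHC class I molecules, built from a heavy chain and β2-microglobulin, present peptides made inside a cell, while class II molecules present peptides taken up from outside. In the brain, C1q is made mainly by microglia and C4 by astrocytes and oligodendrocytes, MHC class I is carried by endothelial cells, microglia and some neurons, and MHC class II is found mostly on macrophages at the borders of the brain.

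Total RNA was isolated from the hippocampi of 3 wild-type and 3 transgenic females aged 7 months, and polyA RNA was sequenced as 1 library per mouse. Tg(ORAI1)Ibd mice, labelled tg1 to tg3, are FVB/NJ mice that carry human ORAI1, a calcium channel of the plasma membrane, in a Thy1.2 cassette that is active in neurons. Wild-type mice, labelled wt1 to wt3, lack the transgene, and the mouse numbers used in the text are those of the labels. Complement and MHC genes are expressed mostly by cells in which this cassette is not active, and all transgenic mice belong to a single line. The comparison asks whether the levels of these genes differ between hippocampi with and without ORAI1 overexpression in neurons.

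Between 37710188 and 52497799 fragments were counted on genes in the wild-type libraries and between 37414241 and 47027279 in the transgenic libraries. Whether a fragment here is a read pair or a single read is not clear from the labels. Wild-type mouse 3 and transgenic mice 2 and 3 had the 3 smallest libraries, with 37710188, 38094114 and 37414241 fragments. Levels are given as FPKM, the fragments of a gene scaled to its exonic length and to the size of the library, and genotypes were compared on the counts with edgeR's quasi-likelihood test and Benjamini-Hochberg adjustment. The genotype labels were checked on Orai1, which stood at 3.12 to 3.52 FPKM in wild-type and at 136 to 144 FPKM in transgenic libraries, and on Thy1, at 207 to 225 and 1192 to 1458 FPKM. Of 15 markers of the choroid plexus, a tissue of the ventricle next to the hippocampus, 14 were lower in transgenic mice, and the summed level of the 15 was 1896 to 2393 CPM, counts scaled to the size of the library, in wild-type and 392 to 497 CPM in transgenic libraries. How this difference bears on the levels of complement and MHC genes was not tested. Whether fewer cells of a type or less RNA per cell lies behind any lower level cannot be told apart in whole-tissue RNA. Markers of the hippocampus were present, with Prox1 of the dentate gyrus at 10.05 to 12.97 FPKM and Neurod6 of pyramidal neurons at 78.1 to 91.4 FPKM.

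The 3 chains of C1q are encoded next to each other on chromosome 4 of GRCm38, C1qb at 136880129 to 136886187, C1qc at 136889804 to 136893065 and C1qa at 136895917 to 136898803, all on the reverse strand. B2m lies on chromosome 2 at 122147686 to 122153083. The MHC region of chromosome 17 holds H2-K1 at 33996017 to 34000333, H2-Aa at 34282744 to 34287827, C4b at 34728380 to 34743882 and H2-D1 at 35262730 to 35267499. C3 lies outside that region on the same chromosome, at 57203970 to 57228136.

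No complement or MHC gene of the 10 passed the test between genotypes. At an adjusted p under 0.05, 7.10% of all tested genes were called in either direction, while 0 of the 10 were called. At an unadjusted p under 0.05 the count was again 0 of 10, against 27.8% of all tested genes, and DESeq2's Wald test and limma-voom also called 0 of 10. In none of the 10 genes were the genotypes separated without overlap, which was seen in 34.9% of all tested genes. The median log2 fold change of the 10 was 0.28, beside -0.01 over all tested genes. This median moved with the fit and the mice, to 0.0042 with limma-voom, 0.59 without transgenic mouse 1 and -0.16 without transgenic mouse 2. Their differences nevertheless have wide intervals, because these genes varied more between mice of the same genotype than most others did. The within-genotype SD of log2 CPM had a median of 0.49 over the 10 genes and 0.12 over all tested genes. In each of the 10 it was larger than in at least 94.4% of the genes at a similar level, which are those within 0.5 of its mean log2 CPM.

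**Figure D1:**
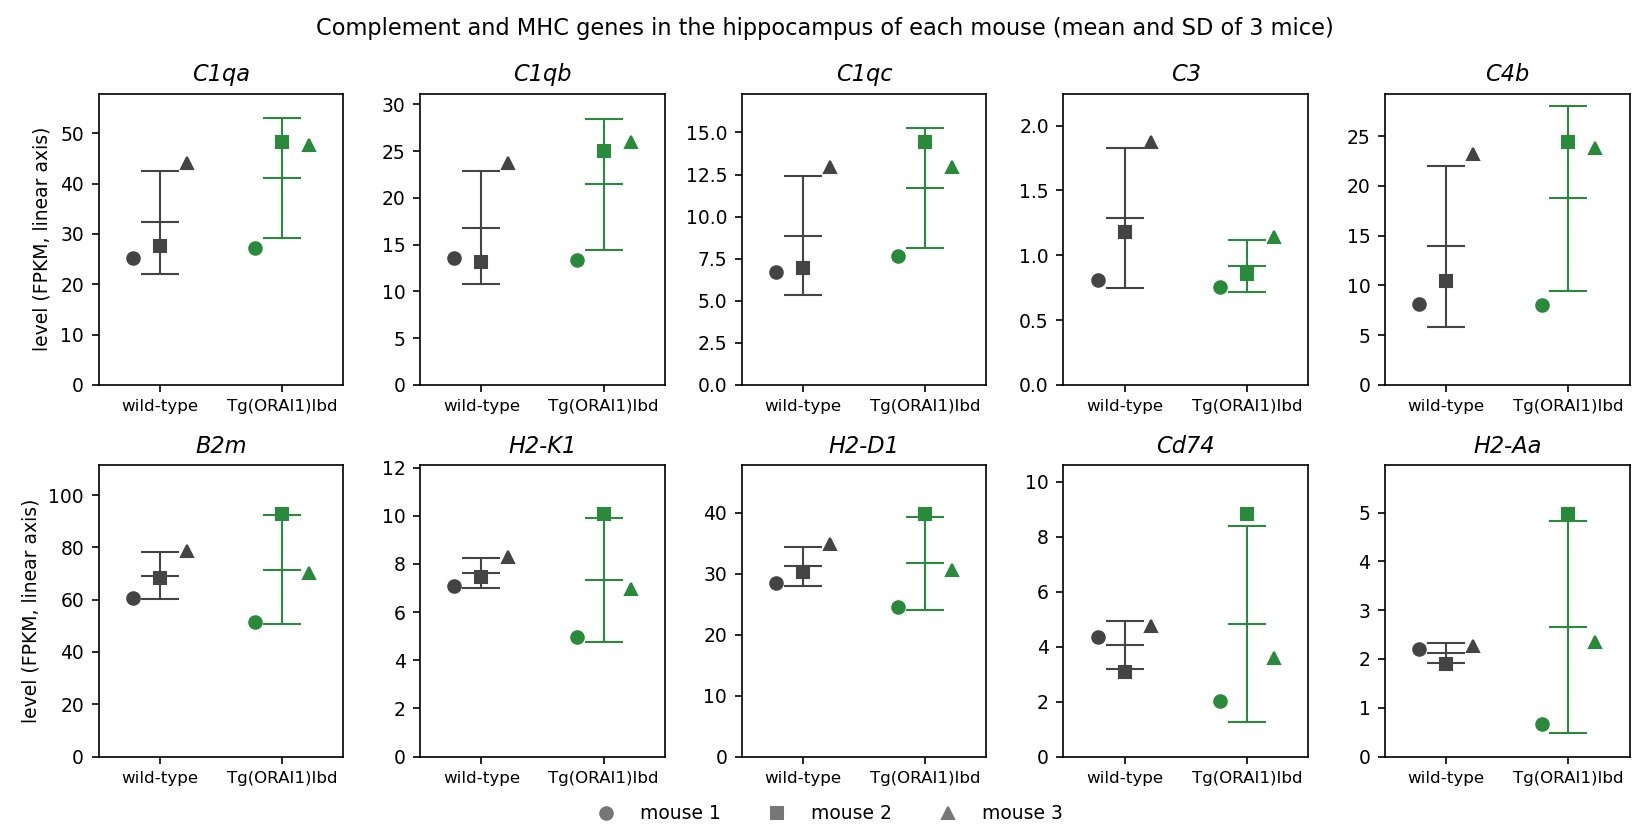
Level in FPKM, on linear axes that start at 0, of each of the 10 genes in every mouse. Grey symbols are wild-type and green symbols Tg(ORAI1)Ibd mice, the shape gives the number of the mouse, and bars show the mean and SD of 3 mice. The genotypes overlap in every panel, and C1qa, C1qb, C1qc and C4b are high in wild-type mouse 3 and in transgenic mice 2 and 3.

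C1qa, which encodes the A chain of C1q, was the most abundant of the C1q chains. It stood at 25.3, 27.6 and 44.1 FPKM in wild-type mice 1, 2 and 3 and at 27.3, 48.3 and 47.7 FPKM in transgenic mice 1, 2 and 3. Wild-type mouse 3 and transgenic mice 2 and 3 were thus high, the other 3 mice were low, and both genotypes held mice of both kinds. The mean was 32.3 ± 10.2 FPKM (SD, n = 3) in wild-type and 41.1 ± 11.95 FPKM (SD, n = 3) in transgenic hippocampi, with a log2 fold change of 0.35 (SE 0.27, 95% interval -0.28 to 0.97, adjusted p = 0.446). C1qb, the B chain, was at 13.6, 13.1 and 23.8 FPKM in wild-type and at 13.4, 25.04 and 25.98 FPKM in transgenic mice, in the same order of mouse numbers. C1qc, the C chain, was at 6.69, 6.93 and 12.9 FPKM in wild-type and at 7.68, 14.4 and 12.96 FPKM in transgenic mice. In both genes the same 3 mice were high as for C1qa, and the genotypes overlapped. The log2 fold changes were 0.35 for C1qb (SE 0.30, adjusted p = 0.496) and 0.40 for C1qc (SE 0.31, adjusted p = 0.438). With single mice left out the values of the trio ran from 0.21 to 0.78, and each chain had its highest value without wild-type mouse 3.

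Within each mouse the chains kept a nearly fixed proportion. The FPKM of C1qa was 1.83 to 2.10 times that of C1qb and 3.34 to 3.98 times that of C1qc over the 6 libraries, although each chain varied 1.91-fold to 2.16-fold between the highest and the lowest mouse. The log2 ratio of C1qa to C1qb differed by -0.0029 between genotypes, with an exact two-sided permutation p of 1 (n = 3 per genotype). In all, 10 ratios between these and related genes were tested in this way, no adjusted p was below 1, and with 3 mice against 3 the smallest p possible is 0.1. No stretch of 76 bases, the read length, is shared between a C1q transcript and a transcript of another gene.

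C4b, which is cleaved in the classical pathway once C1 is activated, varied most among the complement genes. It stood at 8.13, 10.4 and 23.2 FPKM in wild-type mice 1, 2 and 3 and at 8.06, 24.4 and 23.9 FPKM in transgenic mice 1, 2 and 3. The mice high for C1q were also high for C4b, and a gap of 2.23-fold separated the lowest of these 3 from the highest of the others. The log2 fold change between genotypes was 0.43 (SE 0.49, 95% interval -0.72 to 1.59, adjusted p = 0.615). This interval leaves room for a difference from 0.609-fold to 3.00-fold. The log2 fold change of C4b was 0.17 without wild-type mouse 1, 0.27 without wild-type mouse 2, 1.02 without wild-type mouse 3, and 0.80, 0.22 and 0.24 without transgenic mice 1, 2 and 3. Of the 76-base stretches of C4b transcripts, 22.3% also occur in its neighbour C4a, so part of the reads of these genes cannot be assigned with certainty. C4a was far lower, at 0.91 to 1.97 FPKM, and C4b exceeded it 5.62-fold to 14.5-fold in every mouse.

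C3, the central component of the cascade, had the lowest mean level per length of the 10 genes, although in transgenic mouse 1 H2-Aa was lower still. Its level was 0.813, 1.18 and 1.87 FPKM in wild-type mice and 0.758, 0.856 and 1.14 FPKM in transgenic mice, in the order of the mouse numbers. Wild-type mouse 3 was the highest, but transgenic mouse 2, which had the most C4b, came after wild-type mouse 2 and transgenic mouse 3, and the genotypes overlapped. The mean was 1.29 ± 0.54 FPKM (SD, n = 3) in wild-type and 0.92 ± 0.20 FPKM (SD, n = 3) in transgenic hippocampi. The log2 fold change of C3 was -0.48 (SE 0.30, 95% interval -1.19 to 0.22, adjusted p = 0.337), which is the smallest adjusted p among the 10 genes. Without wild-type mouse 3 the log2 fold change of C3 was -0.11. C3 rested on 168 to 365 counts per library.

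**Figure D2:**
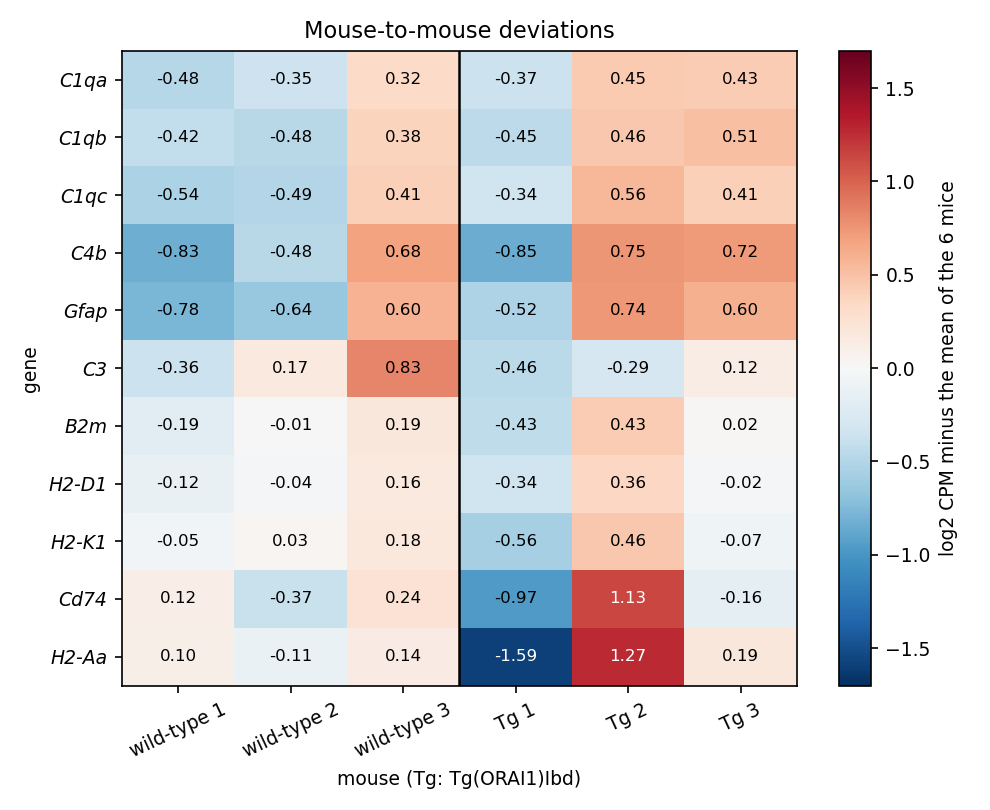
Deviation of each gene in each mouse from the mean of the 6 mice, in log2 CPM, as colour and number, with wild-type mice to the left of the black line and Tg(ORAI1)Ibd mice to the right. C1qa, C1qb, C1qc, C4b and Gfap share a pattern that crosses the line between genotypes, while the MHC genes have their highest value in transgenic mouse 2 and their lowest value in transgenic mouse 1.

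B2m, which encodes β2-microglobulin, the light chain of every class I molecule, had the highest level of the 10 genes. It stood at 60.5, 68.5 and 78.6 FPKM in wild-type mice 1, 2 and 3 and at 51.3, 92.9 and 70.1 FPKM in transgenic mice 1, 2 and 3. Both the lowest and the highest mouse were transgenic, and the wild-type mice lay between them. The log2 fold change of B2m was 0.04 (SE 0.20, 95% interval -0.42 to 0.51, adjusted p = 0.912).

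H2-D1, a classical class I heavy chain, was at 28.5, 30.3 and 34.8 FPKM in wild-type mice and at 24.6, 39.8 and 30.7 FPKM in transgenic mice. H2-K1, the other classical heavy chain listed, was at 7.08, 7.47 and 8.30 FPKM in wild-type mice and at 4.96, 10.1 and 6.97 FPKM in transgenic mice. For both, transgenic mouse 2 was the highest and transgenic mouse 1 the lowest, and the wild-type values fell inside the transgenic range. The log2 fold changes were 0.02 for H2-D1 (SE 0.16, adjusted p = 0.947) and -0.06 for H2-K1 (SE 0.23, adjusted p = 0.900), and the intervals ran from 0.780-fold to 1.32-fold and from 0.668-fold to 1.38-fold. The sign of the small fold change of H2-D1 turned with offsets for gene length or GC content, with limma-voom and with the replicate block, that of B2m turned with gene length offsets, and those of all 3 genes turned without some single mice. H2-D1 exceeded H2-K1 by 3.95-fold to 4.95-fold and B2m exceeded H2-D1 by 2.09-fold to 2.33-fold in all 6 libraries. FVB/NJ mice carry another MHC haplotype than the reference strain to which reads were aligned, and how this affected the levels of H2-D1, H2-K1 and H2-Aa was not tested. Shared 76-base stretches made up 5.33% of H2-D1 and 2.96% of H2-K1 transcripts, mostly with H2-Q1 and H2-Q10.

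H2-Aa, the α chain of a class II molecule, was the gene with the widest range. It stood at 2.20, 1.90 and 2.27 FPKM in wild-type mice 1, 2 and 3 and at 0.663, 4.98 and 2.35 FPKM in transgenic mice 1, 2 and 3. The highest transgenic mouse had 7.50-fold the level of the lowest, whereas the 3 wild-type mice lay close together between them. Cd74, the invariant chain that guides class II molecules to the endosome, was at 4.36, 3.09 and 4.76 FPKM in wild-type and at 2.04, 8.84 and 3.60 FPKM in transgenic mice. The extremes were the same 2 transgenic mice. The log2 fold changes were 0.32 for H2-Aa (SE 0.57, 95% interval -1.02 to 1.65, adjusted p = 0.761) and 0.24 for Cd74 (SE 0.48, 95% interval -0.87 to 1.35, adjusted p = 0.785). Both moved with single transgenic mice, to -0.49 for H2-Aa and -0.52 for Cd74 without mouse 2 and to 0.79 and 0.61 without mouse 1. With limma-voom the log2 fold changes of H2-Aa and Cd74 were -0.18 and -0.047, and with the replicate block 0.00059 and 0.018.

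Levels of the 5 MHC genes were correlated from mouse to mouse. Pearson's r of log2 CPM over the 6 libraries was 0.89 to 0.99 in the 10 pairs, with exact permutation p-values of 0.0042 to 0.0306 and an adjusted p of 0.0306 in every pair. Spearman's rho was 0.60 to 1.00, with adjusted permutation p-values of 0.0278 to 0.242, and 1 pair of 10, B2m with H2-D1, passed at 0.05. Transgenic mice 1 and 2 lay farthest from the median of the gene on the x axis in every pair. Without them r remained 0.97 for B2m with H2-D1, 0.78 for B2m with H2-K1 and 0.88 for H2-D1 with H2-K1, but in the 6 pairs of a class I with a class II gene it was between -0.07 and 0.45. The relation of class I with class II genes rests on those 2 mice. Among C1q and C4b the mice fall into separate high and low values, and no correlation among them was tested.

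The start regions of B2m, H2-K1 and H2-D1, which moved together with and without those mice, and of H2-Aa as a class II gene are shown with the letters that known class I and class II promoter elements share, so that the motifs can be seen beside the values. Each sequence covers 250 bases before and 50 bases after a start site given by RefSeq, read 5′ to 3′ on the strand of the gene, on GRCm38.p6. The start site used for H2-D1 lies 364 bases inside the gene as placed above, while those of the other 3 genes lie within 14 bases of the edge of the gene. Capitals mark GGGGATTCC (the enhancer A of class I genes, a κB element), GAAA followed after 2 bases by another GAAA (core of the interferon-stimulated response element), GAANNGAAA (the same core with 1 A fewer in its first part, chosen after the sequences were seen), TGACG (core of the X2 box) and ATTGG (core of the Y box), searched on both strands, and a match on the reverse strand appears as its reverse complement. H2-K1 lies at chr17:34000298-34000597 on the reverse strand, H2-D1 at chr17:35262844-35263143 on the forward strand, B2m at chr2:122147437-122147736 on the forward strand and H2-Aa at chr17:34287774-34288073 on the reverse strand.
H2-K1: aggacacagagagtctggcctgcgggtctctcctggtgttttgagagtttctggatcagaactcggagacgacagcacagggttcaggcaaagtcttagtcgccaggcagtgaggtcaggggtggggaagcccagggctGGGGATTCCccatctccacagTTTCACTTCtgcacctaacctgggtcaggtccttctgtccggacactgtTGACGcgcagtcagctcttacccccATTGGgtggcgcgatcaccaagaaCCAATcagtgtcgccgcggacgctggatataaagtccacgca
H2-D1: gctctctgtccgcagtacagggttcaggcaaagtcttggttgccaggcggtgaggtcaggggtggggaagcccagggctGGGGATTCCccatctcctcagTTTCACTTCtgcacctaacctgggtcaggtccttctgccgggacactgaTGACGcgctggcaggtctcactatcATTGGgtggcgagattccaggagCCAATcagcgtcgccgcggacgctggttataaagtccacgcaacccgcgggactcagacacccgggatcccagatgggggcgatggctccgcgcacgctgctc
B2m: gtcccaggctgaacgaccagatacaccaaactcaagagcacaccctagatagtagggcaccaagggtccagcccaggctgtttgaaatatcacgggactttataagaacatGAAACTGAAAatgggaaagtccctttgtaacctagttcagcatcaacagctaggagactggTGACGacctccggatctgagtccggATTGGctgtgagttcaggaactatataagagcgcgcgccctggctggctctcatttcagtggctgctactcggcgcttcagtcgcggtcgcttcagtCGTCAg
H2-Aa: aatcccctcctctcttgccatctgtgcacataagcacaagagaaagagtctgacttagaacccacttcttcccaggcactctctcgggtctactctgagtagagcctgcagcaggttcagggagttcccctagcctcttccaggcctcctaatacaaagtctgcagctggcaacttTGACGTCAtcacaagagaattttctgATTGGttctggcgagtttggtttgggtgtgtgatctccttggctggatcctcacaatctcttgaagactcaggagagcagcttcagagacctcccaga

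GGGGATTCC was found in the windows of H2-K1 and H2-D1 and in 0.250% of 32851 promoters of the same length, and GAANNGAAA in the same 2 genes and in 7.52% of promoters. The GAAA repeat was found in the window of B2m and in 3.44% of promoters. From the enhancer A letters to the end of the Y box, the windows of H2-K1 and H2-D1 were identical at 89 of 100 bases when aligned without gaps. TGACG occurred in 20.8% and ATTGG in 37.4% of all promoters. In H2-K1, H2-D1 and B2m the starts of TGACG and ATTGG were 25 bases apart, and in H2-Aa 26 bases apart. A pair at either distance in this order, on either strand, was found in 0.164% of all promoters. Of the 10 genes 7 had a promoter sequence, and 4 of these held the pair. It was found in H2-M3 among 15 other genes of the class I list with a sequence. In the class II list it was found in 0 of 11 other genes with a sequence. That list also holds regulators such as Ciita and Rfxap and the protease Ctss. The class I list holds related molecules such as Fcgrt, and chains were not counted apart in either list. The distance of the pair was chosen after the sequences were seen. The windows of C1qb, C1qc and C3 held no such pair, and C1qa, C4b and Cd74 had no entry. In H2-Aa the reverse complement of TGACG overlaps TGACG itself. These are matches of letters, and binding was not measured.

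Per length of transcript the wild-type order ran from B2m through C1qa, H2-D1, C1qb, C4b, C1qc, H2-K1, Cd74 and H2-Aa to C3. B2m exceeded C1qa in 6 of 6 libraries with wild-type ranges that did not overlap. C1qa and H2-D1 could not be ordered, since C1qa was higher in 4 of 6 libraries and in 1 of the 3 wild-type ones, and the same held for C1qc and H2-K1. C1qb exceeded C4b and C4b exceeded C1qc in 6 of 6 libraries, although the wild-type ranges of these neighbours overlapped.

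**Figure D3:**
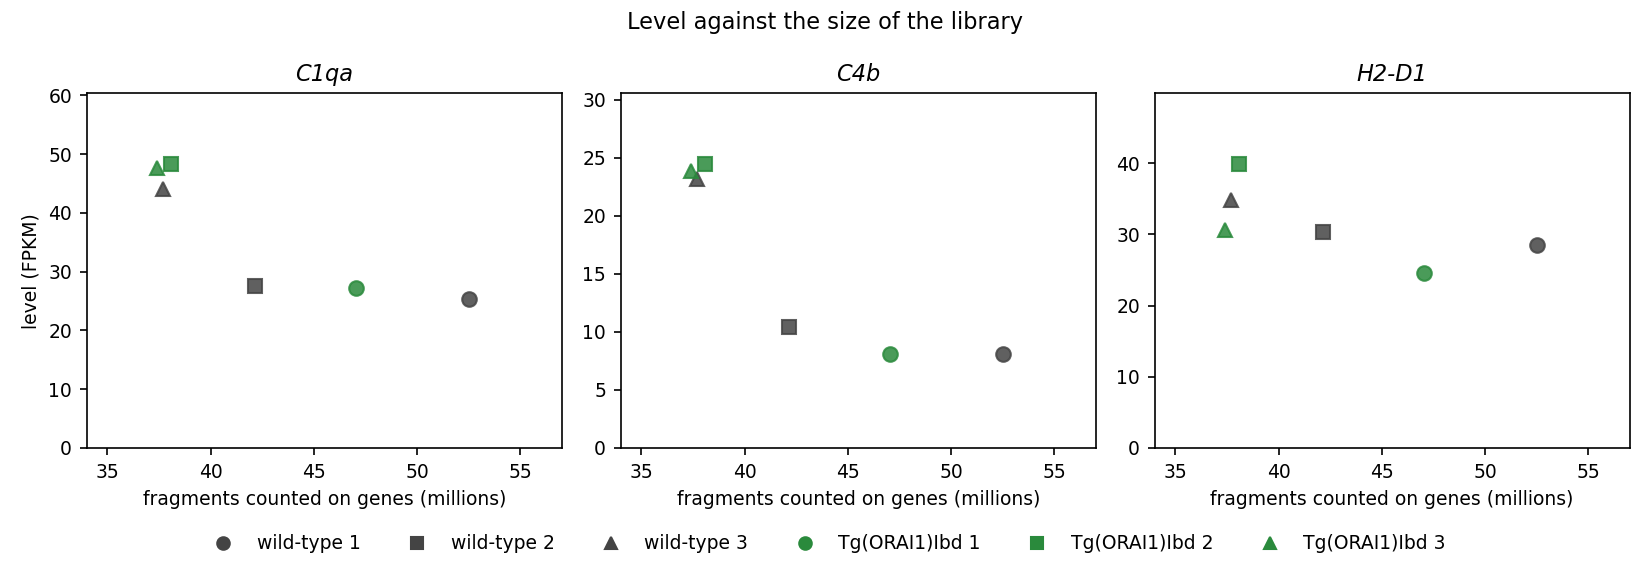
Level in FPKM of C1qa, C4b and H2-D1 against the number of fragments counted on genes in each library, with grey symbols for wild-type and green symbols for Tg(ORAI1)Ibd mice. The 3 libraries with the fewest fragments have the 3 highest levels of each gene, with a gap to the other libraries in C1qa and C4b and a ratio of 1.01 across the same step in H2-D1.

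The mice with high C1q and C4b were those with the 3 smallest libraries. In 7 of the 10 genes all 3 of these libraries lay above the other 3, which was seen in 11.4% of all tested genes, while the opposite order was seen in 0 of the 10 and in 9.46% of all. This split was chosen after the values of C1q and C4b were seen, and these are 4 of the 7 genes. In the other 3 the lowest of the small libraries exceeded the highest of the large ones by only 1.02-fold (B2m), 1.01-fold (H2-D1) and 1.03-fold (H2-Aa). The order with the small libraries above held in 8 of 10 astrocyte markers, 11 of 15 microglia markers and 5 of 8 markers of macrophages at the borders of the brain. It held in 5 of 12 endothelial markers, 3 of 10 oligodendrocyte markers, 1 of 12 markers of hippocampal neurons and 0 of 15 choroid plexus markers. For tested markers of lymphocytes and dendritic cells it was 1 of 4, and for tested blood markers 0 of 4. The opposite order was seen in 4 of 12 markers of hippocampal neurons, 3 of 4 blood markers, 1 of 10 astrocyte markers and 1 of 4 lymphocyte and dendritic cell markers. Among the pathway lists described further on, the first order held in 19 of 28 interferon response genes and 7 of 12 genes of complement initiation. It held in 6 of 10 complement receptors, 5 of 17 complement regulators and 0 of 4 genes of the alternative and terminal pathways. It also held in 5 of 13 other genes of the class II list, 4 of 16 other class I heavy chains and 3 of 14 genes of class I peptide loading. Library size enters FPKM as a divisor, and its part in this pattern was not tested. These 3 libraries come from both genotypes and form no group of the study, so no test was made between them and the rest.

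Levels of microglial RNA moved in the same direction as C1q. The summed level of 15 microglia markers was 368, 395 and 482 CPM in wild-type mice 1, 2 and 3 and 363, 539 and 512 CPM in transgenic mice 1, 2 and 3. Relative to this sum the C1q trio had a log2 ratio of -2.77, -2.81 and -2.32 in wild-type and of -2.65, -2.36 and -2.32 in transgenic mice, so that the mice high for C1q were also high for C1q per microglial RNA. The ratio was 0.19 higher in transgenic mice on the log2 scale (exact two-sided permutation p = 0.3, n = 3 per genotype, where the smallest possible p is 0.1). It ran from 0.10 without wild-type mouse 2 to 0.35 without wild-type mouse 3. Of the 15 markers 0 were called, beside 7.10% of all tested genes. Their median log2 fold change was 0.23, and 12 of the 15 were above 0. At an unadjusted p under 0.05 in edgeR's test 4 of the 15 were higher and 0 were lower, beside 27.8% of all tested genes in either direction. The 5 genes most alike the C1q trio over the 6 libraries, out of 14229 searched, were the calcium-binding protein gene S100a6 (r = 0.999), Igfbp6 for a binding protein of insulin-like growth factors (r = 0.998), the phosphatase gene Ptpn6 (r = 0.997), Gfap (r = 0.997) and Tmem100 (r = 0.996). These correlations describe the likeness of patterns over 6 libraries that share a split into low and high values. Gfap, the intermediate filament of astrocytes, was at 76.5, 84.1 and 198 FPKM in wild-type and at 91.4, 218 and 199 FPKM in transgenic mice, with a log2 fold change of 0.50 (adjusted p = 0.490). The genotypes overlapped for Gfap as they did for C1q.

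Class I genes were compared in the same way with endothelial RNA. The summed level of 12 endothelial markers was 262 to 294 CPM in wild-type and 258 to 346 CPM in transgenic libraries. Relative to it, H2-K1, H2-D1 and B2m together had a log2 ratio of -0.86, -0.82 and -0.71 in wild-type and of -1.10, -0.73 and -0.96 in transgenic mice. The ratio was -0.13 on the log2 scale in transgenic relative to wild-type mice (exact two-sided permutation p = 0.3, n = 3 per genotype), and it ran from -0.23 without transgenic mouse 2 to -0.046 without transgenic mouse 1. Transgenic mice 1 and 2, the extremes for the MHC genes, were also the extremes for border macrophage markers, whose summed level was 15.8 CPM in the first and 42.3 CPM in the second and 24.7 to 34.9 CPM in wild-type mice. Highest in transgenic mouse 2 and lowest in transgenic mouse 1 were 6 of the 10 complement and MHC genes, 5 of 8 border macrophage markers, 15 of 28 interferon response genes, 7 of 16 other class I heavy chains, 6 of 15 microglia markers, 5 of 12 endothelial markers and 4.81% of all tested genes, a pattern chosen after the values were seen. In other lists the same was seen in 2 of 4 genes of the alternative and terminal pathways and 4 of 14 genes of class I peptide loading. It was seen in 3 of 13 other genes of the class II list and 3 of 17 complement regulators. The pattern was also found in 2 of 12 genes of complement initiation, 2 of 10 complement receptors and 2 of 10 astrocyte markers. For oligodendrocyte markers it was 1 of 10, for choroid plexus markers 1 of 15, and for tested markers of lymphocytes and dendritic cells 1 of 4. It was seen in 0 of 4 blood markers and 0 of 12 hippocampal neuron markers. What part border macrophages, microglia or endothelial cells have in the levels of class II genes was not tested. Of the 13 markers of lymphocytes and dendritic cells 4 passed the filter on low counts and 1, Xcr1, was at 0 in every library. Cd3e, a chain of the T cell receptor complex, stood at 0.0053 to 0.026 FPKM, and among the blood markers, of which 4 passed the filter and 0 were called, the summed level was 172 to 245 CPM in wild-type and 123.1 to 224 CPM in transgenic libraries. The genes most alike H2-K1 and H2-D1 were Pabpc1 for the polyA-binding protein (r = 0.995), H2-Q4 (r = 0.993), Crb1 (r = 0.992), Gstm2 (r = 0.990) and Bmp4 (r = 0.990).

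Beyond the 10 genes, 8 lists of complement, MHC and interferon genes were examined, and 7 of their 114 tested members (6.14%) passed the test, a share close to the 7.10% of all tested genes. Among 17 tested complement regulators 0 were higher and 3 were lower, with a median log2 fold change of -0.05 over the list. Cd59a, which blocks the membrane attack complex, was at 11.9, 14.2 and 10.5 FPKM in wild-type and at 6.19, 6.36 and 6.65 FPKM in transgenic mice (log2 fold change -0.93, SE 0.11, adjusted p = 0.0098). Cd55, which speeds the decay of C3 convertases, was at 2.24, 2.22 and 2.12 FPKM in wild-type and at 1.21, 1.43 and 1.07 FPKM in transgenic mice (log2 fold change -0.83, SE 0.12, adjusted p = 0.0159). For both, every transgenic mouse lay below every wild-type mouse. Genotypes without overlap, in either direction, were seen in 7 of the 17 regulators and in 34.9% of all tested genes. Cd59b, the paralogue of Cd59a, fell by 0.95 on the log2 scale (SE 0.22, adjusted p = 0.0462), but it stood at only 0.403 to 1.16 FPKM and 8.97% of its 76-base stretches occur in other genes. Its call was lost in 10 of 18 other fits, which include each of those with a mouse left out. Clu (clusterin, an inhibitor of the terminal complex) at 227 to 333 FPKM and Sez6l2, a neuronal membrane protein that inhibits complement, at 83.9 to 97.9 FPKM were the most abundant regulators, with log2 fold changes of 0.05 and 0.09 (adjusted p = 0.881 and 0.390).

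**Figure D4:**
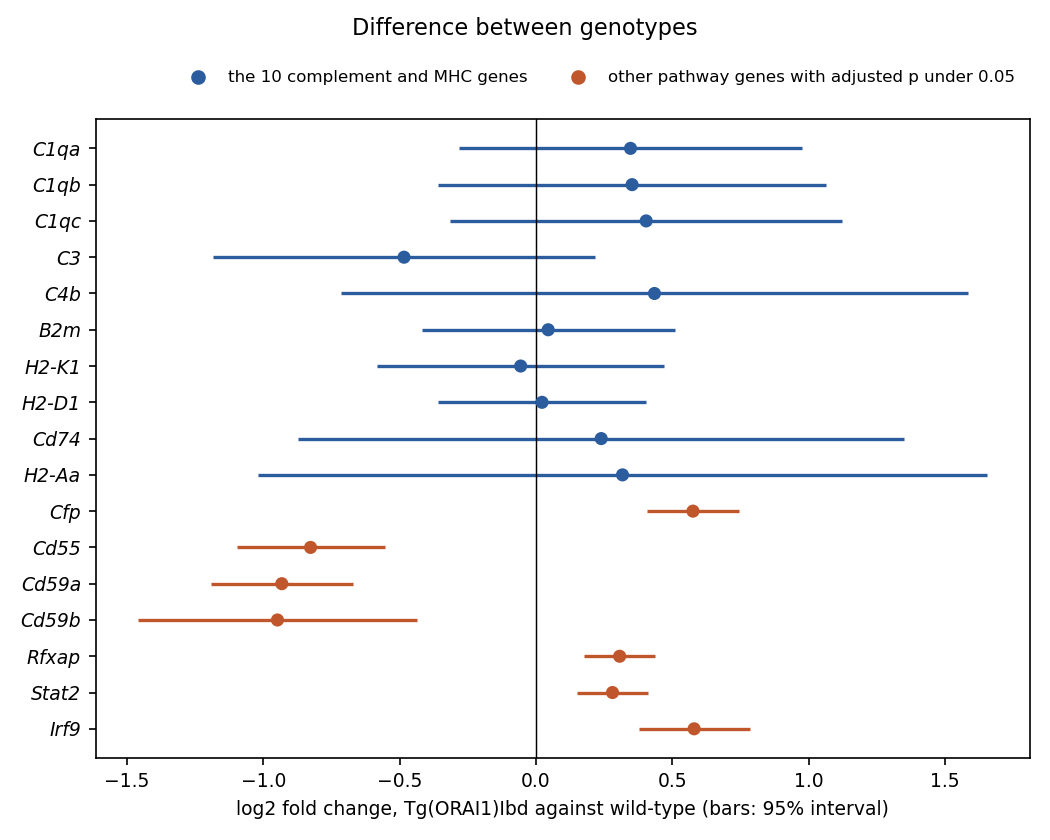
Log2 fold change of Tg(ORAI1)Ibd against wild-type mice (points) with its 95% interval (lines) for the 10 complement and MHC genes in blue and for the 7 other genes of the pathway lists with an adjusted p under 0.05 in orange. All 10 blue intervals include 0, and the intervals of C4b, Cd74 and H2-Aa are the widest.

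Cfp encodes properdin, the factor that stabilises the C3 convertase of the alternative pathway. It was the only one of 4 tested genes of the alternative and terminal pathways to pass, at 7.42, 8.29 and 7.69 FPKM in wild-type and 12.4, 11.1 and 11.4 FPKM in transgenic mice (log2 fold change 0.58, SE 0.07, adjusted p = 0.0114). The transgenic mice were all above the wild-type mice, and the values within each genotype lay close together. A separation in either direction was seen in 34.9% of all tested genes. C8g followed it in level, at 0.554 to 0.730 FPKM. Hc, which encodes C5 and carries a loss-of-function allele in FVB/NJ mice, stood at 0.031 to 0.113 FPKM, and Cfb, Cfd, C6, C8a, C8b and C9 did not pass the filter on low counts.

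Of the 12 tested genes that start the classical and lectin pathways besides C1q and C4b, 0 were called, with a median log2 fold change of -0.08. Colec12, a scavenger collectin, at 1.04 to 3.75 FPKM and C4a at 0.91 to 1.97 FPKM were the most abundant of them, and C4a had a log2 fold change of 0.59 (adjusted p = 0.135). Of 10 tested complement receptors 0 were called, with a median of 0.12. Lrp1 at 31.2 to 34.9 FPKM and Megf10 at 4.40 to 5.18 FPKM, both receptors that can bind C1q, had log2 fold changes of -0.03 and -0.15 (adjusted p = 0.797 and 0.106).

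**Figure D5:**
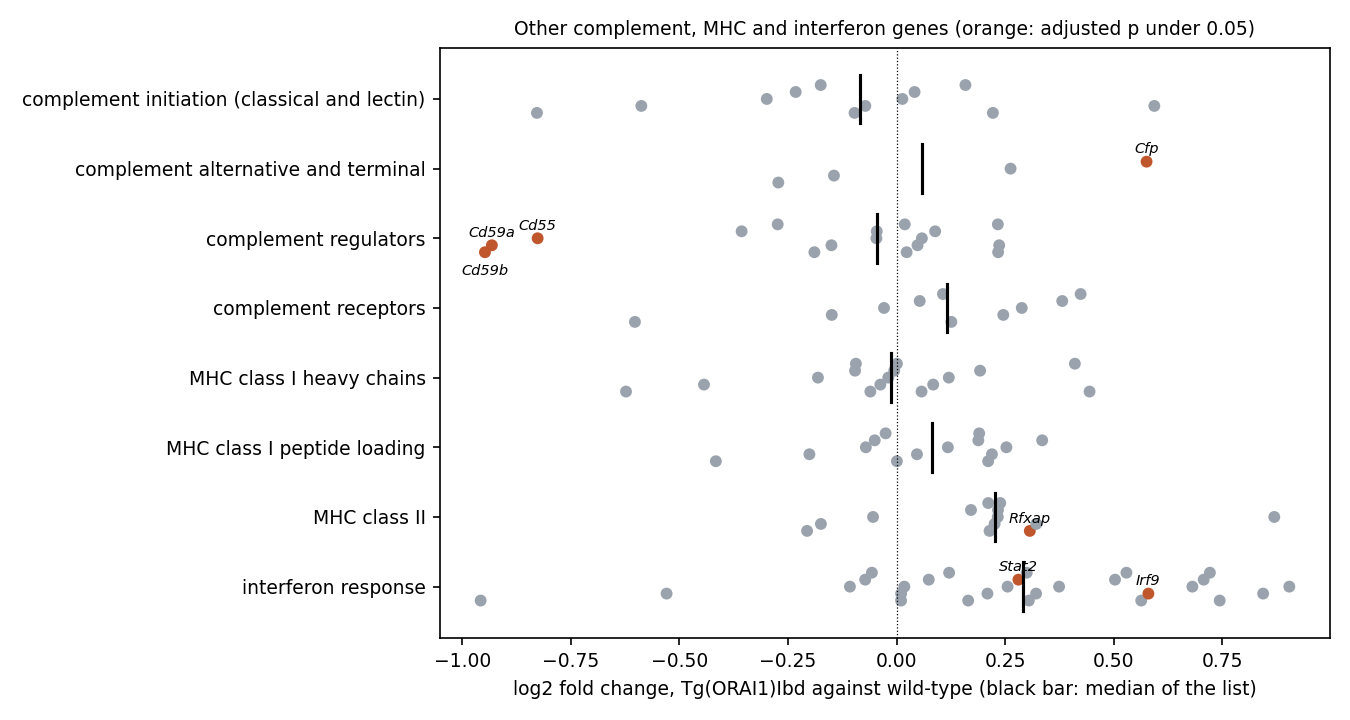
Log2 fold change of Tg(ORAI1)Ibd against wild-type mice for each tested gene of 8 lists that do not include the 10 genes. Each point is a gene, orange points have an adjusted p under 0.05 and are named, and the black bar is the median of the list. Cd55, Cd59a and Cd59b lie to the left and Cfp, Irf9, Stat2 and Rfxap to the right of 0.

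Most other MHC genes did not pass the test, and the intervals of several are wide. Among 16 tested class I heavy chains and related molecules 0 were called, with a median log2 fold change of -0.01. Fcgrt, the neonatal Fc receptor, at 7.26 to 12.3 FPKM and H2-Q4, a heavy chain of the Q region, at 1.80 to 4.20 FPKM were the most abundant, with log2 fold changes of -0.04 and 0.00 (adjusted p = 0.924 and 0.999). Of 14 genes for the processing and loading of class I peptides 0 were called, with a median of 0.08. The endoplasmic reticulum chaperones Calr at 114 to 150 FPKM and Canx at 71.6 to 78.3 FPKM led this list, with log2 fold changes of 0.21 and -0.05 (adjusted p = 0.099 and 0.556).

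Besides H2-Aa and Cd74, the class II list holds other class II chains, their regulators and enzymes. Of its 13 tested genes 1 was higher and 0 were lower, with a median of 0.23. This was Rfxap, a subunit of the factor that binds the X box of class II promoters, at 12.1 to 12.7 FPKM in wild-type and 14.7 to 16.1 FPKM in transgenic mice (log2 fold change 0.31, SE 0.06, adjusted p = 0.0280). The call of Rfxap was lost in 8 of 18 other fits, which include all 4 with offsets for gene length or GC content. Ctss, the protease that removes the invariant chain, was the most abundant of the list at 34.9 to 63.3 FPKM and was high in wild-type mouse 3 and transgenic mice 2 and 3, the mice that were high for C1q. Its log2 fold change was 0.32 (adjusted p = 0.434). Ciita, the master regulator of class II genes, was at 0.017 to 0.034 FPKM.

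Of 28 interferon response genes 2 were higher and 0 were lower, with a median log2 fold change of 0.29. Irf9, a subunit of the factor that binds the interferon-stimulated response element, was at 2.06, 1.99 and 2.27 FPKM in wild-type and at 2.89, 3.38 and 3.18 FPKM in transgenic mice (log2 fold change 0.58, SE 0.09, adjusted p = 0.0189). Stat2, another subunit of that factor, was at 5.01 to 5.47 FPKM in wild-type and at 6.10 to 6.52 FPKM in transgenic mice (log2 fold change 0.28, SE 0.06, adjusted p = 0.0333). The call of Stat2 was also lost in 8 of 18 other fits, among them those with the replicate block alone, with GC offsets and with both, but not those with gene length offsets. The most abundant genes of the list, Ifi27 at 21.7 to 27.2 FPKM and Ifitm3 at 9.89 to 24.8 FPKM, had log2 fold changes of 0.07 and 0.12 (adjusted p = 0.641 and 0.840). With a mouse left out in turn, between 0 and 6 of the 7 called genes of these lists kept an adjusted p under 0.05, namely 0 without wild-type mouse 1, 1 without transgenic mouse 3, 2 without wild-type mouse 2, 3 without transgenic mouse 2, 5 without wild-type mouse 3 and 6 without transgenic mouse 1, while the sign of all 7 was the same in each fit.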

How the data were processed

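Hippocampal RNA of 6 females, 3 of each genotype, was sequenced with reads of 76 bp. The authors filtered reads with Trimmomatic, aligned them to mm10 with STAR and counted fragments per gene with featureCounts 1.5.0-p1 (reversely stranded, mapping quality of at least 3). The labels call the run paired-end but give reads of 1 × 76 bp, and featureCounts was set to count fragments, so whether a count stands for a read pair or a single read is not settled, and sharing of 76-base stretches is that of single reads. The deposited table holds raw counts, not normalized, and exon lengths, on the Ensembl 95 annotation of GRCm38. The columns, wt1 to wt3 and tg1 to tg3, bear the titles of the samples, which give the genotype. Gene symbols came from GENCODE M21, which matched 54723 of 54838 identifiers.

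Genes were kept by edgeR's filterByExpr (minimum count 10), libraries were scaled by TMM, and edgeR's quasi-likelihood test (6 libraries, no covariates) was run over all 19087 genes with Benjamini-Hochberg adjustment at 0.05. The standard errors and 95% intervals are from that fit. FPKM are TMM-scaled CPM divided by the deposited length, and log2 CPM had a prior count of 2. Library totals ran from 37414241 to 52497799 fragments, and the intervals cover the spread between mice as well as counting error. The labels describe separate hippocampi, so p-values measure the spread between these samples.

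The 10 genes and the lists were chosen with earlier results of these data known. Named in the text are the 10 genes, the genes of each pathway list with an adjusted p under 0.05, the 2 most abundant of each list, the 5 genes most alike (mean log2 CPM above 1) and the label checks Orai1 and Thy1. Marker genes, Prox1, Neurod6, H2-M3, Hc, Ciita, Ctss and the genes listed as low were added after their values were seen. Alternatives were other scalings (DESeq2 size factors, total counts, upper quartile), DESeq2's Wald test, limma-voom, other filters, offsets for gene length and GC content (loess, span 0.5), each mouse left out and a replicate block. The fits were tested on simulated data. R 4.3.3, edgeR 4.0.16, limma 3.58.1, DESeq2 1.42.0 and Python 3.11.15 were used.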

Additional observations from a re-analysis of the deposited data

How the results depend on the processing

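The count of complement and MHC genes called, 0 of 10, was the same in all 18 other fits, and the smallest adjusted p of a gene of the 10 in any of them was 0.108 (C1qc without wild-type mouse 3). With a mouse left out, at an unadjusted p under 0.05 the 3 C1q genes were higher without wild-type mouse 3 (log2 fold changes 0.64, 0.68 and 0.78) and, with H2-Aa, without transgenic mouse 1 (0.58, 0.61 and 0.64, and 0.79 for H2-Aa), and C3 was lower without wild-type mouse 1 (-0.72). The sign of small fold changes turned in some fits. With limma-voom these were H2-D1 (-0.0015), Cd74 (-0.047) and H2-Aa (-0.18), with gene length offsets B2m (-0.031) and H2-D1 (-0.0069), and with GC offsets H2-D1 (-0.024). With each mouse left out, the log2 fold change ranged from -0.17 to 0.24 for B2m, from -0.33 to 0.17 for H2-K1, from -0.15 to 0.18 for H2-D1, from -0.52 to 0.61 for Cd74 and from -0.49 to 0.79 for H2-Aa. The signs of C1qa, C1qb, C1qc, C4b and C3 were the same in all fits.

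Over all genes 1355 were called, 2230 with DESeq2's Wald test, 778 with gene length offsets and 406 with GC offsets, and 77 to 1149 with a mouse left out, and the cause of these differences was not tested. Cd59b and Stat2 lost their call with GC offsets and with the replicate block, though not with the block and gene length offsets together, and Cd59b and Rfxap with gene length offsets, Rfxap with GC offsets too, while Cfp, Cd55, Cd59a and Irf9 lost theirs only without single mice.

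Mice that share a number are not the same animal, and the deviations of same-numbered mice correlated at -0.357 to 0.398. These deviations are taken from the mean of each genotype and are not independent. They cannot decide whether the numbers pair the libraries. With a replicate block 738 genes were called, with the block and gene length offsets 569, and with the block and GC offsets 461 (148 higher, 313 lower, beside 591 and 764 without either). H2-D1 turned to -0.00028 with the replicate block, B2m, H2-D1, Cd74 and H2-Aa to -0.063, -0.026, -0.033 and -0.040 with the block and gene length offsets, and H2-D1 and Cd74 to -0.046 and -0.053 with the block and GC offsets. At an unadjusted p under 0.05 in edgeR's test, C1qa (log2 fold change 0.34) and C3 (-0.43) differed with the replicate block, and C3 also with the block and gene length offsets (-0.40) or GC offsets (-0.47). The adjusted p of these 4 values in edgeR's test was 0.123 to 0.175. The median of the 10 was 0.015 with the block and -0.030 with the block and gene length offsets. Both ratios of the report kept their sign under all their alternatives. The C1q to microglia ratio ranged from 0.10 to 0.35 and the class I to endothelial ratio from -0.23 to -0.05 with a mouse left out, and with the replicate block they were 0.19 (exact sign-flip permutation p = 0.25) and -0.13 (p = 0.5).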
